A study of Mus musculus with 12 samples.

Results

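The splicing regulator genes described here are 50 genes of 54232 in a count table of 3′ RNA sequencing libraries from mouse intestinal stem cells (ISCs). They are Arglu1, which codes for a coactivator rich in arginine and glutamate that takes part in splicing, and 49 other genes for SR proteins, Tra2 proteins, SR protein kinases, U1-associated and RBM proteins, nuclear speckle scaffolds, DEAD-box helicases, hnRNP proteins, 3′ splice site and core factors, and epithelial regulators. Arglu1 was chosen by its level in these same libraries, where it was lower at 22 months, so its difference with age is given as a description with no test. The other members were listed by function around it, with earlier results of these data known. ISCs had been isolated from the small intestine of female mice, 1 mouse per library, in 4 groups of 3 libraries. SM6 young and SM6 old were wild-type mice (C57/Bl6) of 2 and 22 months, whose ISCs were sorted by a set of surface markers. Lgr5-GFP young and Lgr5-GFP old were mice of 2 and 22 months that carried Lgr5-EGFP-IRES-CreERT (CreERT2 in the study's methods), an allele that puts a green fluorescent protein and a Cre recombinase under Lgr5, the receptor gene that marks crypt base stem cells. The labels give the surface marker sort for every library, whereas the study's supplement has the reporter mice sorted by GFP. Strain and isolation changed together and cannot be told apart.

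Splicing removes introns from the transcript of a gene and joins its exons. SR proteins mostly bind exons and help the spliceosome to use the neighbouring splice sites, hnRNP proteins often bind silencer elements and oppose them, and kinases of the Clk and Srpk families phosphorylate SR proteins and so move them between nuclear speckles and sites of transcription. Many of these genes also control their own level by including an exon or keeping an intron that sends the transcript to decay. In the intestine, epithelial regulators such as Esrp1 set the exon choices that are typical of epithelial cells.

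Library totals ran from 970472 to 3815425 counts. Levels are given as CPM, counts scaled to a common library total after adjustment of that total by TMM, a method that sets most genes equal between libraries. Reads came from transcript ends, so a level can be compared between libraries for 1 gene but not between genes, and transcripts of 1 gene were not separated. Lgr5 was detected in every library, at 216.6 to 356 CPM, and Ascl2, a transcription factor of ISCs, at 89.2 to 132 CPM. The summed level of 13 ISC markers was 13419 to 16514 CPM in SM6 young and 8598 to 9817 in SM6 old, and 13156 to 14940 in Lgr5-GFP young and 11291 to 12925 in Lgr5-GFP old. Of the 13, Olfm4 (log2 fold change −0.84), Znrf3 (−1.01) and Sox9 (−1.01) were called lower in SM6 old, with adjusted p = 0.00342, 0.0115 and 0.00358. Other epithelial cells were also seen. Paneth cell markers (13 genes, none at 0 in a whole group) summed to 13066 to 88363 CPM in SM6 young, 54467 to 332021 in SM6 old, 57672 to 319314 in Lgr5-GFP young and 22935 to 39157 in Lgr5-GFP old. Lyz1, the lysozyme of Paneth cells, had log2 fold changes with age of 2.52 in SM6 (adjusted p = 0.0608) and −2.61 in Lgr5-GFP (adjusted p = 0.119), a difference of −5.13 (adjusted p = 0.0128). Mki67, a marker of dividing cells, had −0.77 (adjusted p = 0.278) and −0.60 (adjusted p = 0.558). Of 20 cell cycle genes, Mki67 included, 2 fell in the mean of both isolations by edgeR, limma and DESeq2, Rrm2 (−0.55, adjusted p = 0.047) and Cenpf (−0.42, adjusted p = 0.0437), with a median of −0.13. SM6 old replicate 3 and Lgr5-GFP young replicate 1 stood apart, with 23.1% and 23.2% of their counts in defensin genes. Goblet cell markers (9 genes, none at 0 in a whole group) summed to 5915 to 9490 CPM in SM6 young, 17792 to 19060 in SM6 old, 5545 to 14850 in Lgr5-GFP young and 3256 to 5615 in Lgr5-GFP old. Every SM6 old library was thus above every SM6 young one. Of these 9 genes, 6 were called higher with age in SM6 and 1 lower in Lgr5-GFP. At 22 months 7 were called lower in Lgr5-GFP than in SM6. Enterocyte markers (13 genes) summed to 2028 to 2138 CPM in SM6 young and 2639 to 9422 in SM6 old, with every old library higher and 4 of the 13 called higher. In Lgr5-GFP they summed to 1830 to 3174 CPM in the young and 2161 to 11989 in the old, the highest being replicate 2, and 3 of the 13 were called lower. Enteroendocrine markers summed to 460 to 501 CPM in SM6 young, 432 to 995 in SM6 old, 134 to 278 in Lgr5-GFP young and 66.5 to 159 in Lgr5-GFP old. Of these 11 genes 2 were called higher with age in SM6, and 6 were called lower in Lgr5-GFP than in SM6 at 22 months. Immune markers (12 genes, 3 to 6 of them at 0 in a whole group) summed to 11.5 to 53.8 CPM in SM6 young and 18.3 to 28.8 in SM6 old. In Lgr5-GFP they summed to 27.7 to 56.7 CPM in the young and 5.79 to 17.1 in the old, without overlap. Tuft cell markers (8 genes, 2 of them at 0 in each group) summed to 3.88 to 13.3 CPM in SM6 young, 4.07 to 24.8 in SM6 old, 5.67 to 55.1 in Lgr5-GFP young and 3.86 to 11.4 in Lgr5-GFP old. Stromal and endothelial markers (12 genes, 5 to 8 at 0) summed to 2.07 to 10.2 CPM. The part of these cell types in the results below was not tested, except for Paneth cells, where the count of called members was repeated without the 2 libraries rich in defensins, and again with a term for the share of defensin counts. Without those libraries it was again 0 in Lgr5-GFP, in the difference of the age effects and between the isolations at either age, and the counts in SM6 and in the mean are given below for either repeat. Mitochondrial genes held 5.77% to 7.01% of the counts in SM6, with overlap between the ages, 4.02% to 6.29% in Lgr5-GFP young and 7.37% to 9.33% in Lgr5-GFP old.

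The level of Arglu1 in SM6 young was 512, 586 and 698 CPM, and in SM6 old it was 227, 233 and 300.4 CPM. In Lgr5-GFP young it was 529, 485 and 547 CPM, and in Lgr5-GFP old 265, 366 and 219 CPM. Every old library lay below every young library, which is the pattern it was chosen by. The group means were 599 ± 93.9 and 254 ± 40.7 CPM in SM6, and 520.4 ± 32.0 and 283 ± 75.2 CPM in Lgr5-GFP (SD, n = 3). These are 2.36-fold and 1.84-fold lower levels in old ISCs, with log2 fold changes of −1.24 (SE 0.19) and −0.88 (SE 0.19). The comparison of the isolations uses the same libraries as the choice, so it is not independent of it and carries no weight as support. Lgr5-GFP minus SM6 was −0.20 on the log2 scale at 2 months (95% interval −0.58 to 0.18) and 0.16 at 22 months (−0.23 to 0.55), with adjusted p = 0.854 and 0.858 (edgeR's quasi-likelihood test, Benjamini-Hochberg over all 13368 genes tested). Its gene lies on chromosome 8, 8665075 to 8690521, minus strand (GRCm38, GENCODE vM21). In these libraries of sorted cells, fewer cells of a type and less RNA per cell cannot be told apart, here or for the genes that follow.

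**Figure D1:**
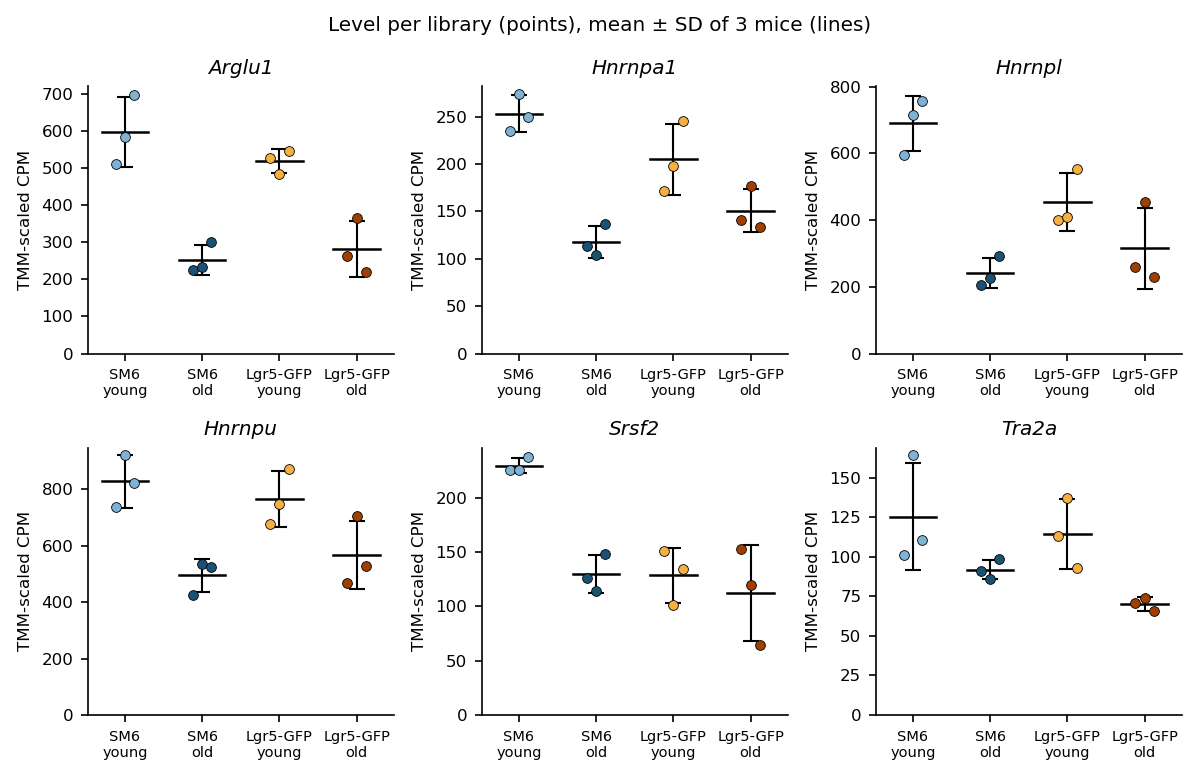
Level of Arglu1 and of the 5 members called in an age comparison, in TMM-scaled CPM (linear axes from 0), for each of the 12 libraries; points are libraries and lines the mean ± SD of 3 mice. In SM6 the old libraries lie below the young ones for all 6 genes, whereas in Lgr5-GFP the ages overlap for Hnrnpl, Hnrnpa1, Hnrnpu and Srsf2 and not for Arglu1 and Tra2a.

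The comparison of old with young ISCs in SM6 asks which splicing regulators change with age in wild-type mice. Of the 49 members other than Arglu1, 48 passed the filter on low counts, and Srsf4, with 17 counts in all 12 libraries, did not. Among the 48, 4 fell with age and 0 rose, at an adjusted p under 0.05. Of all 13368 genes tested, 1.77% were called lower and 0.643% higher. At an unadjusted p under 0.05, 9 members (18.8%) were lower and 0 higher, where 13.1% of all genes passed in either direction. Limma and DESeq2 also called 4 lower and 0 higher.

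Hnrnpl showed the largest fall among the 4. It codes for an hnRNP protein that binds CA repeats and represses or activates nearby exons. Its level was 596, 716 and 756 CPM in SM6 young and 204, 227 and 292 in SM6 old. All old libraries were lower, by 2.86-fold (log2 fold change −1.52, SE 0.22, adjusted p = 0.000468). Hnrnpa1, the general hnRNP protein that binds exonic and intronic silencers and counteracts SR proteins, was at 235, 274 and 250.04 CPM in SM6 young and 113, 104 and 137 in SM6 old. The old libraries again did not reach the young ones, and the level was 2.15-fold lower (log2 fold change −1.10, SE 0.18, adjusted p = 0.000959).

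Hnrnpu, a large nuclear protein that binds RNA and chromatin and influences the maturation of U2 snRNP, was at 737, 923 and 823 CPM in SM6 young and 426, 534 and 523 in SM6 old. The ages did not overlap, and the fall was 1.67-fold (log2 fold change −0.74, SE 0.18, adjusted p = 0.0219). Srsf2, the SR protein also known as SC35, was at 226, 226 and 238 CPM in SM6 young and 126, 114 and 149 in SM6 old, 1.77-fold lower with age (log2 fold change −0.83, SE 0.22, adjusted p = 0.0429). The calls of Hnrnpl and Hnrnpa1 held in all 23 alternatives tried, with adjusted p of 6.48e-14 to 0.0113 and of 7.96e-07 to 0.0147. Those of Hnrnpu and Srsf2 held in 18 and 17, with adjusted p of 0.0014 to 0.168 and of 0.00089 to 0.2. The count was 4 without the 2 libraries rich in defensins, with the same genes named. It was 2 (Hnrnpl and Hnrnpa1) with the defensin share as a covariate, where the estimates were −0.67 for Hnrnpu (adjusted p = 0.0658) and −0.84 for Srsf2 (adjusted p = 0.0777), against −0.74 and −0.83 without it. It was also 2 without SM6 young replicate 2, SM6 young replicate 3, SM6 old replicate 1 or SM6 old replicate 2. The call of Srsf2 was also lost without SM6 young replicate 1 (adjusted p = 0.0809).

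Most members, called or not, had estimates below 0 in SM6. Of the 48 members, the 4 called ones included, 34 (70.8%) had a log2 fold change below 0, against 50.7% of all genes tested, and the median was −0.16 against −0.01. Lists near in function also lay mostly below 0 in SM6. The shares were 71.1% of the core spliceosome genes, 65% of the SR-related cofactors, 76% of the other splicing regulators and 71.4% of the genes of nonsense-mediated decay. They were 75% of the cell cycle genes and 84.6% of the ISC markers, but 0% of the Paneth and goblet cell markers and 15.4% of the enterocyte markers. Differences between the lists were not tested. The libraries of the ages did not overlap, with the old ones lower, for 15 of the 48 members, where 9.78% of all genes tested did so. All old libraries lay above all young ones for 1 of the 48 members, where 1035 of all 13368 genes tested did so. This was Son, the scaffold of nuclear speckles, at 787 to 812 against 746 to 765 CPM, and it was not called (log2 fold change 0.09, SE 0.16, adjusted p = 0.883).

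In Lgr5-GFP the same question was asked in the reporter strain, in libraries that share none with SM6. Of the 48 members, 0 were called in either direction by edgeR, limma and DESeq2, where edgeR called 0.471% of all genes. At an unadjusted p under 0.05, 5 were lower and 1 higher, 12.5% of the 48 in all, against 9.79% of all genes. The genes called in SM6 had smaller differences here and their ages overlapped. Hnrnpl was at 399, 410.3 and 554 CPM in Lgr5-GFP young and 259, 455 and 230.5 in Lgr5-GFP old. Replicate 2 of the old group lay within the young range and the other old libraries below it (log2 fold change −0.53, SE 0.22, adjusted p = 0.406). Without Lgr5-GFP old replicate 2, which was also the library with the highest enterocyte sum, Hnrnpl was −0.89 and was called (adjusted p = 0.0429). Without any other single library it was not called, and it came down to −0.35 without Lgr5-GFP old replicate 3, with adjusted p of up to 0.771 over all 23 alternatives.

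Hnrnpa1 was at 171, 199 and 245 CPM in Lgr5-GFP young and 141, 176 and 134 in Lgr5-GFP old (log2 fold change −0.44, SE 0.18, adjusted p = 0.387), and Hnrnpu at 677, 748 and 873 against 469, 703 and 529 CPM (−0.43, SE 0.18, adjusted p = 0.404). In both genes 1 old library, replicate 2, lay among the young ones. Srsf2 was at 151, 101 and 134 CPM in the young group and 153, 120 and 64.6 in the old, with old libraries on either side of the young (−0.20, SE 0.22, adjusted p = 0.837). Without Lgr5-GFP old replicate 3 its difference was 0.07.

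Tra2a and Rbm5 were the 2 members, other than Arglu1, whose old libraries all lay below the young ones in both isolations. This is 4.17% of the 48 members, and 1.29% of all genes tested did so. In Lgr5-GFP alone, 7 of the 48 had old libraries below all young ones, against 7.95% of all genes. Tra2a codes for an activator that binds GA-rich exonic enhancers. It was at 101, 164 and 111 CPM in SM6 young and 91.2, 86.2 and 98.3 in SM6 old, and at 113, 137 and 92.7 in Lgr5-GFP young and 70.6, 74.0 and 65.6 in Lgr5-GFP old. The gap between the ages in SM6 was narrow, from 98.3 to 101 CPM. Rbm5, named here after its values were seen, codes for a regulator of exon skipping in apoptosis genes. It was at 159 to 163 CPM in SM6 young and 122 to 136 in SM6 old, and at 172 to 185 in Lgr5-GFP young and 119 to 146 in Lgr5-GFP old. The spread of Rbm5 within a group was small, and its log2 fold changes were −0.34 (SE 0.15) and −0.45 (SE 0.15), with adjusted p = 0.349 and 0.263.

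Of the 48 members, 36 (75%) were below 0 in Lgr5-GFP, against 53.6% of all genes tested, with a median of −0.14 against −0.03. With library totals in place of TMM scaling the medians became 0.05 and 0.16, so that the members' direction in Lgr5-GFP turned while they stayed below the median of all genes. The higher mitochondrial share of Lgr5-GFP old, which did not overlap that of Lgr5-GFP young, moved with these values, as did a lower sum of 17 immediate early and heat shock genes (2350.5 to 2878 CPM in the young and 1966 to 2322 in the old), and their part was not tested. In both isolations together 25 members (52.1%) were below 0 in each and 3 above 0 in each. Of all 13368 genes tested, 28.8% were below 0 in each and 3254 genes above 0 in each. Srsf5, an SR protein named here after its values were seen, went the other way. It was at 90.1, 96.4 and 79.1 CPM in Lgr5-GFP young and 135, 120 and 164 in Lgr5-GFP old, with every old library higher (log2 fold change 0.66, SE 0.18, adjusted p = 0.122). It was the only 1 of the 48 members with this order in Lgr5-GFP, which 883 of all 13368 genes tested had. In SM6 its ages overlapped, at 115 to 133 and 97.0 to 145 CPM.

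**Figure D2:**
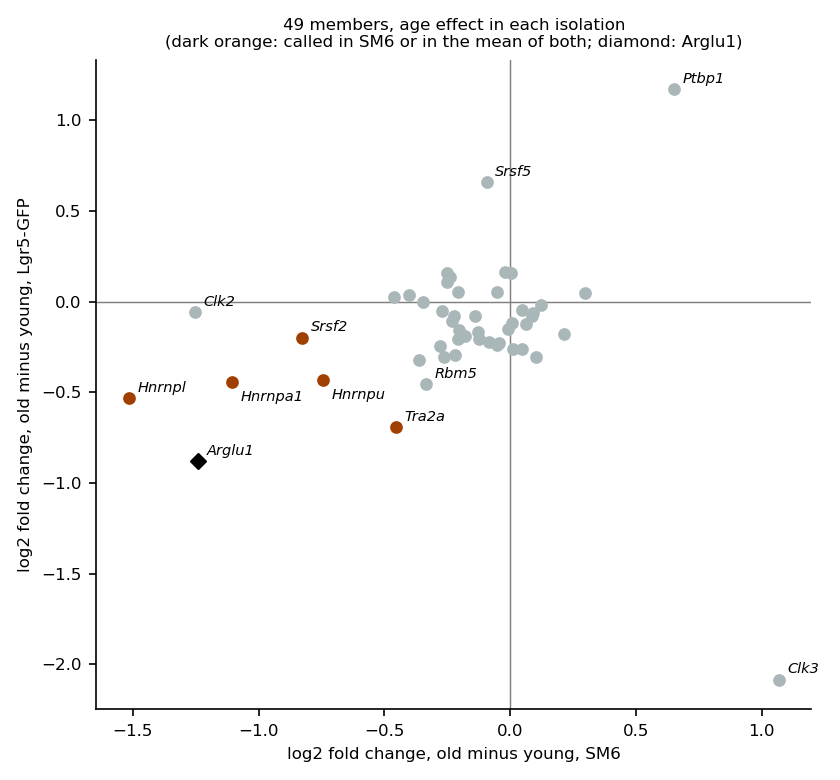
Log2 fold change, old minus young, in SM6 (horizontal axis) and Lgr5-GFP (vertical axis) for the 49 members that passed the filter on low counts; dark orange points were called in SM6 or in the mean of both isolations, and the diamond is Arglu1, which was not tested. Of the members other than Arglu1, 25 lie below 0 on both axes and 3 above 0 on both, and the far points Clk3 and Ptbp1 had few counts.

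The age effect was also estimated as the mean of both isolations. Among the 48 members 4 fell and 0 rose, where 2.06% of all genes were called lower and 0.598% higher. They were Hnrnpl (2.03-fold, log2 fold change −1.02, SE 0.15, adjusted p = 0.000355), Hnrnpa1 (1.71-fold, −0.77, SE 0.13, adjusted p = 0.00082), Hnrnpu (−0.59, SE 0.12, adjusted p = 0.00778) and Tra2a (1.49-fold, −0.57, SE 0.14, adjusted p = 0.0235). Limma and DESeq2 called 5 each, these and Rbm5, whose adjusted p here was 0.0526. The first 2 calls held in all 22 alternatives (adjusted p of 4.55e-13 to 0.00338 and of 6.26e-07 to 0.00542), Hnrnpu in 21 (0.00019 to 0.0512) and Tra2a in 15 (0.00274 to 0.111). The call of Tra2a was lost without SM6 young replicate 2, SM6 old replicate 1, SM6 old replicate 2, Lgr5-GFP young replicate 2, Lgr5-GFP old replicate 1 or Lgr5-GFP old replicate 3, with adjusted p of 0.0582 to 0.111. Without the 2 libraries rich in defensins the count was again 4, with these genes, and with library totals alone it was 2 (Hnrnpl and Hnrnpa1). Srsf2, called in SM6, had −0.51 (SE 0.16, adjusted p = 0.0888).

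The mean effects were bounded closely for most members. The 95% interval lay within 1 on the log2 scale on either side of 0 for 43 of the 48 (89.6%), where this held for 62% of all genes. Intervals are wider for genes with few counts, and all genes were not matched to the members by level. The 2 shares therefore do not compare how stable these genes were. Thus a change of 2-fold or more lay outside the interval for those 43, among them all 9 SR proteins tested and all 6 of the 3′ splice site and core factors.

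**Figure D3:**
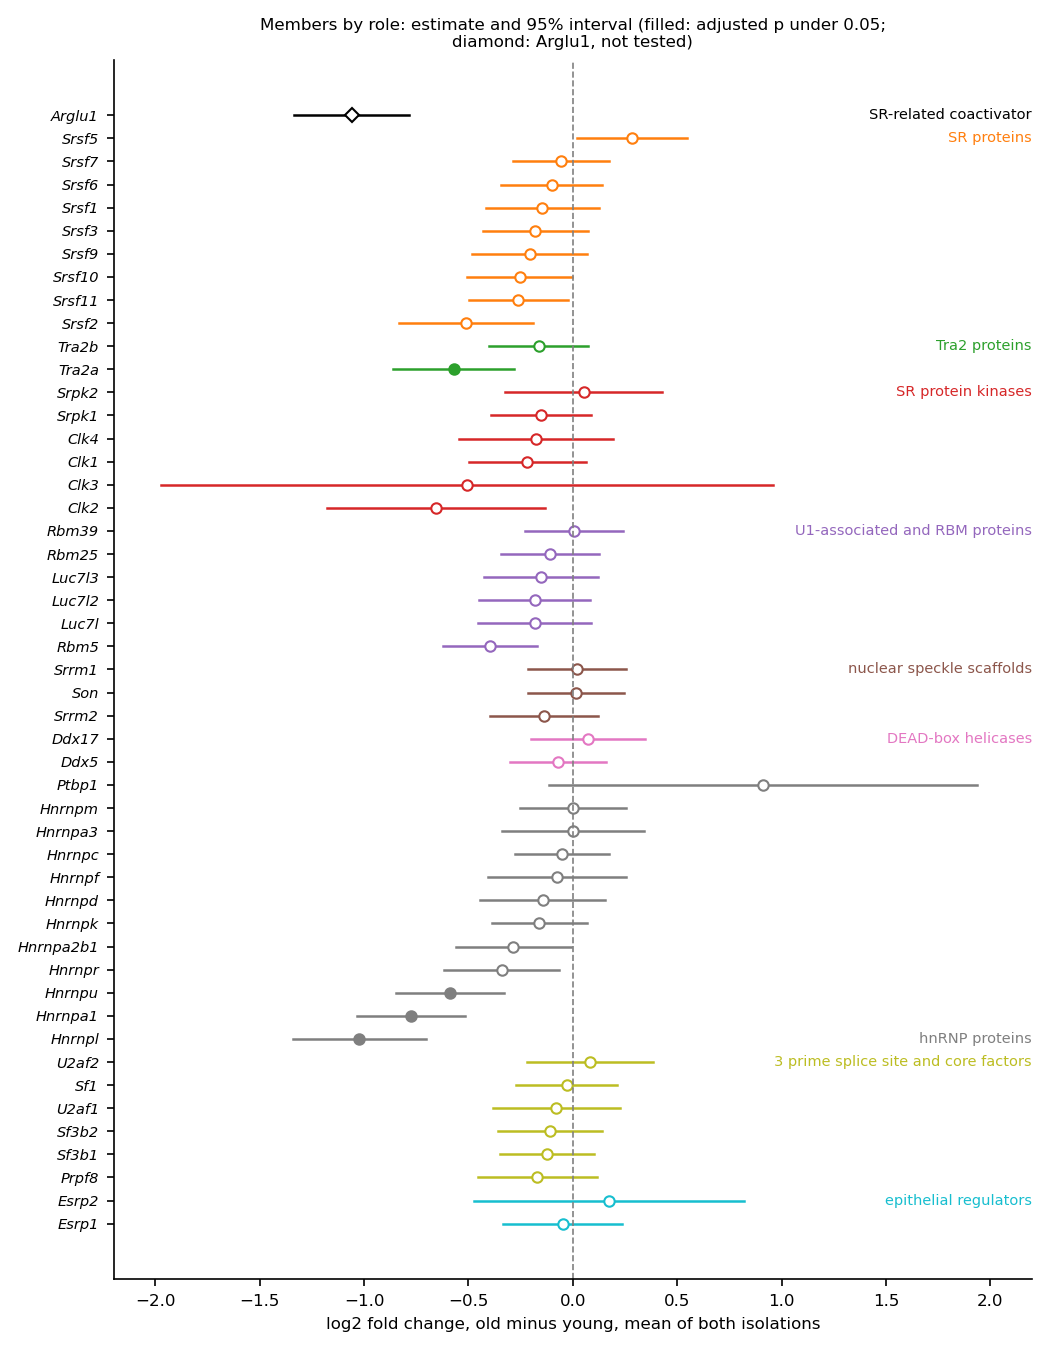
Log2 fold change, old minus young, as the mean of both isolations (horizontal axis, points) with its 95% interval (lines) for 49 members, grouped by role. Filled points, Hnrnpl, Hnrnpa1, Hnrnpu and Tra2a, were called at an adjusted p under 0.05, and the diamond is Arglu1, which was not tested.

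By role, the SR proteins (9 of 10 tested) had a median of −0.18 in the mean of both isolations, with 8 below 0 and 0 called. Srsf3, the smallest of the family, was at 184 to 255 CPM in SM6 young and 163 to 235 in SM6 old, with a mean effect of −0.18 (SE 0.12, adjusted p = 0.601). Both Tra2 genes were below 0, Tra2a as given above and its relative Tra2b at −0.16 (SE 0.11, adjusted p = 0.622). The SR protein kinases (6 tested) had a median of −0.20 and 0 calls. Clk1, a kinase that releases SR proteins from speckles, was lower in SM6 old, at 49.9 to 63.1 CPM against 72.1 to 85.3, and overlapped in Lgr5-GFP, at 48.2 to 71.3 against 53.9 to 58.0, with log2 fold changes of −0.46 (SE 0.19, adjusted p = 0.274) and 0.03 (SE 0.19, adjusted p = 0.986). Clk2, named here after its values were seen, was at 20.2 to 28.5 CPM in SM6 young and 3.99 to 12.9 in SM6 old (−1.25, SE 0.37, adjusted p = 0.0722). It had 336 counts in all libraries, Ptbp1 81 and Clk3 49, and their intervals were wide.

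The hnRNP proteins (12 tested, Ptbp1 included) held 3 of the 4 calls in SM6 and 3 of the 4 in the mean, with a median of −0.15 in the mean and 9 below 0. In SM6, 7 of the 12 had all old libraries below the young ones, where 9.78% of all genes did, and in Lgr5-GFP 0 of the 12, where 7.95% of all genes did. The difference between these counts was not tested. Ptbp1, which binds pyrimidine tracts and represses exons, had 0.91 in the mean (SE 0.50, adjusted p = 0.465). The SR proteins held the other call in SM6 (Srsf2) and the Tra2 proteins the other in the mean (Tra2a), and the remaining roles held 0. The U1-associated and RBM proteins (6) had a median of −0.17, with Luc7l3, a homologue of a yeast U1 snRNP protein, at −0.15 (SE 0.13, adjusted p = 0.711). The nuclear speckle scaffolds (3) lay at −0.14 to 0.02, with Son at 0.01 (SE 0.11, adjusted p = 0.986). The DEAD-box helicases (2) had −0.07 for Ddx5 (SE 0.11, adjusted p = 0.869) and 0.07 for Ddx17. The 3′ splice site and core factors (6) had a median of −0.09 and a range of −0.17 to 0.08, and Sf3b1, the U2 snRNP subunit that holds the branch point, had −0.12 (SE 0.11, adjusted p = 0.721). The epithelial regulators had −0.05 for Esrp1 (SE 0.14, adjusted p = 0.942) and 0.17 for Esrp2.

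Summed over all 50 members, the level was 13323 to 14474 CPM in SM6 young and 11305 to 12158 in SM6 old, and 12984 to 13572 in Lgr5-GFP young and 10669 to 12261 in Lgr5-GFP old. The means were 14.6% lower in SM6 old and 13.0% lower in Lgr5-GFP old. In SM6, 69.1% of this difference lay in Arglu1 and the 5 members called in an age comparison, and in Lgr5-GFP 40.0%. The other 44 members summed to 10448 to 11586 CPM in SM6 young and 10006 to 10658 in SM6 old, which overlap, and to 10905 to 11126 in Lgr5-GFP young and 9425 to 10903 in Lgr5-GFP old, where the highest old library came to just below the lowest young one. These sums include the genes that were chosen or called for their difference and carry no test.

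Whether age acted differently in the isolations was tested as an interaction, Lgr5-GFP minus SM6. Of the 48 members, 0 were called by edgeR, limma and DESeq2, where edgeR called 0.658% of all genes, and 1 was lower and 4 higher at an unadjusted p under 0.05, which is 10.4% of the 48 against 9.43% of all genes. For Hnrnpl the difference of the age effects was 0.98 (95% interval 0.35 to 1.62, adjusted p = 0.221, and 0.0188 to 0.74 over 22 alternatives, of which 1, with no filter beyond 1 count, passed; 0.63 without Lgr5-GFP old replicate 2), and for Hnrnpa1 it was 0.66 (0.14 to 1.18, adjusted p = 0.374). For Hnrnpu it was 0.31 (−0.21 to 0.82, adjusted p = 0.763), for Srsf2 0.63 (−0.01 to 1.27, adjusted p = 0.536), and for Tra2a −0.24 (−0.81 to 0.34, adjusted p = 0.855). A call in SM6 and none in Lgr5-GFP was therefore not shown to be a difference between them. For Arglu1 the difference was 0.36 (−0.18 to 0.91) and was not tested. With library totals in place of TMM scaling it was 0.73, while the median difference over the 48 members moved from 0.02 to 0.36 and that over all genes to 0.35.

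Between the isolations at the same age, 0 of the 48 members were called by edgeR, limma and DESeq2 at 2 months and at 22 months, where edgeR called 0.0898% and 0.718% of all genes. At an unadjusted p under 0.05, 5 were lower in Lgr5-GFP and 1 higher at 2 months, 12.5% of the 48 against 7.47% of all genes. At 22 months 2 were lower and 3 higher, 10.4% against 9.4%. Without overlap at 2 months, 5 of the 48 members were lower in Lgr5-GFP and 5 higher, as were 982 and 853 of all 13368 genes tested. Srsf2 was lower in every Lgr5-GFP young library than in any SM6 young library, with a log2 fold change of −0.82 (95% interval −1.27 to −0.38, adjusted p = 0.245). Its level in Lgr5-GFP young, 129 ± 25.3 CPM, was close to that in SM6 old, 130 ± 17.5 CPM (SD, n = 3). Hnrnpl was also lower in Lgr5-GFP young than in SM6 young (−0.60, interval −1.04 to −0.16, adjusted p = 0.493).

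The RefSeq windows of the 5 called members, from 250 bases before to 50 after the start of transcription, are printed here because each of these genes fell in an age comparison, and they show which simple promoter letters they share. They are written 5′ to 3′ on the strand of the gene (GRCm38.p6), in lower case, with matches in capitals to 3 short motifs searched on both strands, whose matches may overlap. The motif of the TATA box was searched as TATAAA. For the CCAAT box the search used those letters themselves. That of the GC box was searched as GGGCGG. The gene spans in GENCODE vM21 are chromosome 7, 28808541 to 28822266, for Hnrnpl; chromosome 15, 103240432 to 103246692, for Hnrnpa1; chromosome 1, 178321108 to 178337797, for Hnrnpu; chromosome 11, 116849901 to 116853094, for Srsf2; and chromosome 6, 49243924 to 49264033, for Tra2a.
Hnrnpl, chr7:28810640-28810939, plus strand: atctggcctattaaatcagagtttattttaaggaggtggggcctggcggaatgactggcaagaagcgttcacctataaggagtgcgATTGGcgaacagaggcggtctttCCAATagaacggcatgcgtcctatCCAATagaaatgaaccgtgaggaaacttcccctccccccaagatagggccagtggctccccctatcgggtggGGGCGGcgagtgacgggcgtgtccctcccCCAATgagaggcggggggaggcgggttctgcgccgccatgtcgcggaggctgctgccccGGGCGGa
Hnrnpa1, chr15:103240147-103240446, plus strand: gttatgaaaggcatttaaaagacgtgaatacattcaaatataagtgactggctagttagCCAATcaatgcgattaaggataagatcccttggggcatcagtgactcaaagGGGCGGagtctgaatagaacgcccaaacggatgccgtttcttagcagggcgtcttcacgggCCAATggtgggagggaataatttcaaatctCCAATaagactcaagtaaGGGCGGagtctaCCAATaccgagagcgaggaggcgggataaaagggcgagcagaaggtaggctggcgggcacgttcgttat
Hnrnpu, chr1:178337766-178338065, minus strand: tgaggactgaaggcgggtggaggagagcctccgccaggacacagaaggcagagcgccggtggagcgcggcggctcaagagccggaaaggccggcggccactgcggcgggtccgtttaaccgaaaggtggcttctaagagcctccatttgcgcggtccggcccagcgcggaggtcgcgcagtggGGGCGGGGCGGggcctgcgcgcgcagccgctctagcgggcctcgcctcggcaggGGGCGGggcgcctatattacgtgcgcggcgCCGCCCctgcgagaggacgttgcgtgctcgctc
Srsf2, chr11:116853045-116853344, minus strand: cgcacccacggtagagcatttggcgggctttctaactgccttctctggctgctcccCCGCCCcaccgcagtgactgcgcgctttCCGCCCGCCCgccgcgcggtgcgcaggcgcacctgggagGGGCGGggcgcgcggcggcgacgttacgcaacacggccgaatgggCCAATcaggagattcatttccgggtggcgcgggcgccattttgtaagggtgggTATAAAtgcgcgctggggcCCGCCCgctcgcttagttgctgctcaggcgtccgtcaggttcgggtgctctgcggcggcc
Tra2a, chr6:49264003-49264302, minus strand: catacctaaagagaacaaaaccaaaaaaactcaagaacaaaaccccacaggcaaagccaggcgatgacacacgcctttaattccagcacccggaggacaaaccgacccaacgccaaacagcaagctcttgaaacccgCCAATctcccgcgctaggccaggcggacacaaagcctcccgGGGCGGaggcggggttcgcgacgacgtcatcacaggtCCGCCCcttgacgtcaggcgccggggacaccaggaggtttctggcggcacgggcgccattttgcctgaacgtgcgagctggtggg

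The GC box letters were present in all 5 windows, from 1 or more copies on either strand, and the CCAAT letters in 4, Hnrnpu being without. Of 44 members with a promoter entry, 63.6% held the GC box letters and 54.5% the CCAAT letters, against 35.9% and 37.9% of the 27025 genes with an entry. The TATA letters stood in 1 of the 5, Srsf2, 29 bases before the start, and in 9.09% of the members and 14.2% of all. A further 3 motifs, also searched on both strands, were in 0 of the 5. The E box letters CACGTG were in 11.4% of the members with an entry and 7.24% of all. The ETS letters CCGGAAG stood in 20.5% and 9.12% of these windows, and the palindrome CTCGCGAG in 6.82% and 0.958%. The median GC content of the window was 63.3% in members and 52.7% in all genes. GC box letters are more frequent in GC-rich windows, and the shares were not adjusted for this.

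The other splicing and decay genes were taken from lists by function. None of the 45 core spliceosome genes, such as those for Sm proteins and snRNP subunits, was called in the mean of both isolations by edgeR (3 passed an unadjusted p under 0.05, as did 12.8% of all genes) or DESeq2, and limma called 1. Their median was −0.08, with 62.2% below 0. Among the SR-related cofactors (20 of 22 tested), which bridge SR proteins and the export and exon junction machinery, edgeR called 0 in the mean, with 4 past an unadjusted p under 0.05, and limma and DESeq2 called 1 each. In SM6 it called Bclaf1 (log2 fold change −0.64, SE 0.17, adjusted p = 0.0407). The median was −0.20.

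Among 25 tested of 27 other splicing regulators, 4 fell and 0 rose in the mean of both isolations by edgeR and DESeq2, where edgeR called 2.06% of all genes lower and 0.598% higher, and limma called 5. Their median was −0.18. Khsrp, a KH domain protein of splicing and of the decay of AU-rich mRNAs, was at 248 to 332 CPM in SM6 young and 74.0 to 109 in SM6 old, and at 176 to 312 in Lgr5-GFP young and 69.4 to 199 in Lgr5-GFP old (mean log2 fold change −1.32, SE 0.20, adjusted p = 0.00034). Rbm47, a partner of the mRNA editing enzyme Apobec1, was at 1084 to 1318 against 351 to 562 CPM in SM6 and at 664 to 1017 against 327 to 863 in Lgr5-GFP (−1.07, SE 0.18, adjusted p = 0.00121). Hnrnpa0, another hnRNP protein, had −0.77 (SE 0.14, adjusted p = 0.0021). Hnrnph2, which binds runs of G, was called too, at −1.24 (SE 0.23, adjusted p = 0.00306) and with only 7.33 to 32.1 CPM. In Lgr5-GFP old the highest library for Khsrp, Rbm47 and Hnrnpa0 was replicate 2, as for Arglu1, Hnrnpl, Hnrnpa1 and Hnrnpu. Of the 14 genes of nonsense-mediated decay, 1 fell and 0 rose in the mean by edgeR and DESeq2, with a median of −0.09, and limma called 2. It was Upf1, the helicase at the centre of that pathway, at 44.8 to 73.7 CPM in SM6 young and 20.4 to 25.6 in SM6 old, and at 35.0 to 43.2 in Lgr5-GFP young and 15.3 to 26.8 in Lgr5-GFP old (−1.13, SE 0.18, adjusted p = 0.000846). Its old libraries all lay below the young ones in both isolations.

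**Figure D4:**
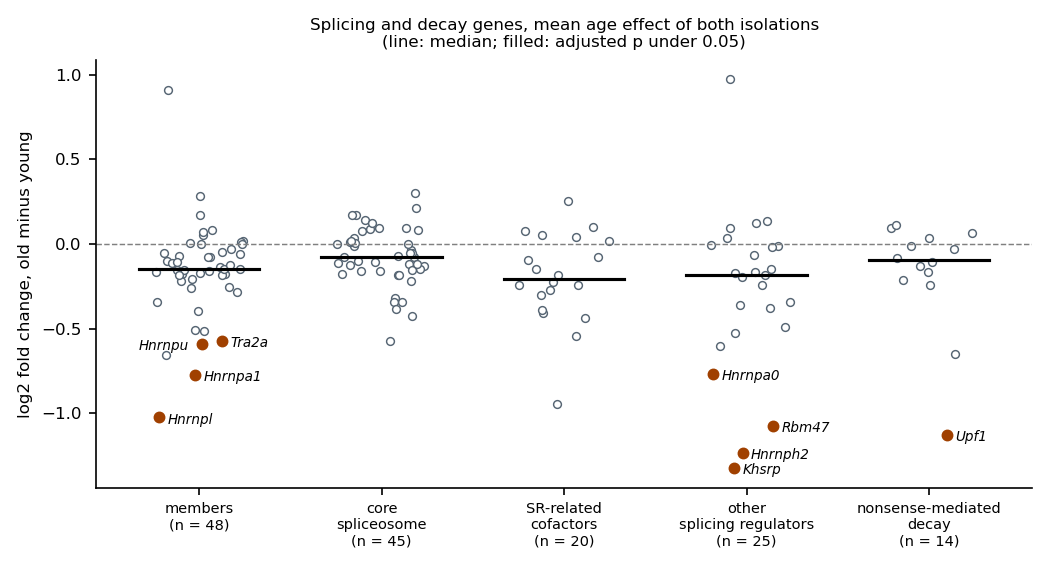
Log2 fold change, old minus young, as the mean of both isolations (vertical axis) for each tested gene of 5 lists, with the median as a line and genes called at an adjusted p under 0.05 filled and named; the horizontal place of a point within its list carries no meaning. Called genes are all below 0, 4 among the members, 0 in the core spliceosome and SR-related cofactors, 4 among other splicing regulators and 1 in nonsense-mediated decay.

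The annotation limits what a count of these genes can mean. Each member has 4 to 34 annotated transcripts in GENCODE vM21. For 40 of the 50 these include a transcript of the nonsense-mediated decay class and for 44 a transcript with a retained intron, which the counts per gene do not separate from the coding form. Arglu1 has 4 transcripts, 1 of each of these classes among them, and Hnrnpl 13, with 1 and 7. The exons of 9 members overlap those of another gene with 100 or more counts. Whether the counting used strand is not stated, so reads from genes on opposite strands cannot be told apart there. Srsf2 is one of these, sharing 460 exon bases with Mettl23 (719 counts in all libraries, against 2977 for Srsf2) and 288 with Mfsd11 (209 counts), both on the other strand. Hnrnpu shares 804 with Cox20 on the other strand, which had 2 counts. A search with the last 400 bases of 1 transcript per member found near-identical copies elsewhere for Hnrnpa3 and U2af1, whose values are therefore uncertain, and none for Arglu1 or the 5 called members. In SM6, longer transcripts tended lower with age, with a median of −0.13 in genes whose transcript had 4648 bases or more and 0.04 in those of 1347 bases or fewer, whereas in Lgr5-GFP these medians were −0.02 and 0.01. Of the 5 called members only Hnrnpu, at 7640 bases, lies in the longer class. Of the 49 members that passed the filter, Arglu1 included, 12 lie in the longer class and 2 in the shorter, and 20 have a GC content of 44.1% or less, a class with a median of −0.07 over all its genes in SM6. The part of transcript length and GC content in the results was not tested.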

How the data were processed

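The members and all lists were chosen with earlier results of these data known. The authors aligned the reads to GRCm38 with STAR 2.4.2a (per the labels) and counted them over exons of GENCODE genes with featureCounts, and the deposited table holds raw counts per gene, with no scaling, for 12 libraries. Molecular identifiers had been added, and whether reads were collapsed by them is not stated. Of 54232 genes, 54079 had a symbol, 30611 were at 0 throughout, and 54165 matched GENCODE vM21, used for positions.

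Following the study, genes with more than 5 reads and at least 1 CPM in at least 1 library were kept (13368). Counts were fitted with edgeR 4.0.16 in R 4.3.3 (TMM scaling, quasi-likelihood, 1 mean per group, all 12 libraries, common dispersion 0.0434), with two-sided tests and p-values adjusted by the Benjamini-Hochberg method over all genes tested, called at under 0.05. Library totals were 970472 to 3815425 counts, median 1424340, and set the precision of low genes. The study's methods give no differential test for these libraries. The fit was tested on simulated data. Alternatives used limma 3.58.1, DESeq2 1.42.0, other scalings and filters, a replicate block, a defensin covariate and libraries left out.

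The members named were Arglu1, those called in a comparison, and fixed examples of the roles (Srsf3, Tra2b, Clk1, Luc7l3, Son, Ddx5, Sf3b1 and Esrp1, and Hnrnpu and Ptbp1 for the hnRNP proteins), with up to 3 called genes of each other splicing or decay list by adjusted p and Lgr5, Ascl2, Lyz1 and Mki67 as markers. The other genes named with values (Rbm5, Srsf5, Clk2, Clk3, Ddx17, Esrp2, Bclaf1, Hnrnph2, Olfm4, Znrf3, Sox9, Rrm2 and Cenpf) were chosen after their values were seen. Near-identical copies were searched with blastn 2.17.0 (at least 95% identity over 70 bases). Promoter windows are from RefSeq, with an entry for 44 of 50 members. Figures were drawn with matplotlib 3.10.9.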

Additional observations from a re-analysis of the deposited data

Results flagged for a closer look

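The age effect of Lyz1, the lysozyme of Paneth cells, differed between the isolations by −5.13 on the log2 scale (Lgr5-GFP minus SM6, SE 1.01, adjusted p = 0.0128 by edgeR's interaction test over all genes), with 2.52 in SM6 and −2.61 in Lgr5-GFP. The summed Paneth cell markers of the ages overlapped in SM6 and did not in Lgr5-GFP, and 1 library each of SM6 old and Lgr5-GFP young held the highest sums, 332021 and 319314 CPM. The same 4 members were called in SM6, and the same 4 in the mean of both isolations, without those 2 libraries. With the defensin share as a covariate the 4 in the mean were again called, and 2 in SM6, where Hnrnpu (adjusted p = 0.0658) and Srsf2 (adjusted p = 0.0777) were not.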

How the results depend on the processing

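With library totals in place of TMM, the median age effect of all genes moved to −0.16 in SM6 and 0.16 in Lgr5-GFP, the called members in the mean of both isolations were 2, the effect of Srsf2 in Lgr5-GFP turned to 0.00833 and the difference of the age effects of Tra2a turned to 0.117. With no filter beyond 1 count, 1 member was called in Lgr5-GFP (Tra2a), 1 in the difference of the age effects (Hnrnpl) and 1 between the isolations at 2 months (Srsf2). In SM6 the called members were 2 with the defensin share as a covariate and 2 at an adjusted p under 0.01. Leaving out 1 library at a time gave 2 to 4 called members in SM6, 0 to 1 in Lgr5-GFP (1 without Lgr5-GFP old replicate 2) and 3 to 5 in the mean. Values near 0 changed sign under some of these: Srsf2 in Lgr5-GFP ran from −0.488 to 0.0686, Son in the mean from −0.0341 to 0.0645, and Esrp1 in the mean from −0.101 to 0.0522, and was 0.0369 without both libraries rich in defensins. Uncalled estimates also moved: in the mean, Luc7l3 ran from −0.25 to −0.04 (without SM6 old replicate 3), Ptbp1 from 0.38 (without SM6 old replicate 1) to 1.15 and Srsf3 from −0.25 to −0.11 (without SM6 old replicate 1). The causes were not tested. Same-numbered libraries of different groups did not deviate together over all genes tested (correlations of −0.04 to 0.05). Such correlations would miss a pairing that affects few genes, and the labels do not say whether the numbers pair the mice. With a replicate block the called members were 4 in SM6, 0 in Lgr5-GFP, 4 in the mean and 0 in the other comparisons, the same genes as without it. Depth limits Clk3, Ptbp1, Esrp2 and Clk2, and Srsf4 could not be tested.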
